A study of Homo sapiens with 6 samples.

Results

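Axon guidance ligands, their receptors and a small group of cytoplasmic effectors were examined in A673/TR/shEF Ewing sarcoma cells before and after EWSR1::FLI1 knockdown. The genes were taken by name: the semaphorins of classes 3 to 7, plexins, ephrins, netrins, netrin-G proteins, UNC5 receptors, Slits and Robos, together with DCC, NEO1, RGMA, RGMB, DPYSL2, DPYSL3 and CRMP1. In all, 61 of the 26364 genes in the table belonged to the set, 39 of them ligands, 19 receptors and 3 effectors. The rule uses gene names and no measured value, although earlier results of these data were known when the set was proposed.

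Axon guidance molecules steer growing nerve fibres and migrating cells by attraction and repulsion. Semaphorins signal through plexins, often with a neuropilin as co-receptor. Netrins signal through DCC, NEO1 and the UNC5 receptors, Slits through Robos, RGM proteins through NEO1, and ephrins through Eph receptor tyrosine kinases on the neighbouring cell. The signals act on the cytoskeleton through small GTPases and through the CRMP proteins, which bind tubulin and which DPYSL2, DPYSL3 and CRMP1 encode. Outside the nervous system the same families act in the migration of neural crest cells, in vessel growth and at tissue boundaries.

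A673 cells come from an Ewing sarcoma and carry EWSR1::FLI1, a fusion of an RNA-binding protein with an ETS transcription factor. All 6 samples were of the derived line A673/TR/shEF, which holds a tetracycline repressor and a doxycycline-inducible shRNA against the fusion mRNA. The 3 EWSR1::FLI1 high samples were untreated, and the 3 EWSR1::FLI1 low samples received 1 µg/mL doxycycline for 72 h. In what follows, values before knockdown are those of the EWSR1::FLI1 high samples and values after knockdown those of the EWSR1::FLI1 low samples, each in the order of replicates 1 to 3 where 3 are given. RNA depleted of ribosomal RNA was sequenced, and 1 value in FPKM (fragments per kilobase of transcript, scaled to the depth of the library) was deposited per gene and sample, a scale on which levels of different genes can be compared. The samples are described as independent clones in one place and numbered as experiments in another, so the p-values measure only the spread between these samples, which may be technical. None of the 6 samples was treated with doxycycline without the shRNA, so the agent and the knockdown cannot be told apart.

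The fusion was reduced in the treated samples. FLI1, whose 3′ part belongs to the fusion mRNA, was at 11.3, 12.7 and 14.2 FPKM before and at 2.91, 4.29 and 3.68 FPKM after knockdown, a log2 fold change of -1.57 ± 0.18 (SE, adjusted p = 0.000676, limma). Of 7 genes known to be high in Ewing sarcoma, all 7 were detected in every sample and 6 fell, with CD99 at -0.53 (adjusted p = 0.067). Markers of leukocytes summed to at most 2.01 FPKM in any sample. Reads on genes numbered from 6980361 to 16658933 per library, and EWSR1::FLI1 low replicate 1 was the shallowest. EWSR1::FLI1 low libraries differed more from each other than EWSR1::FLI1 high libraries did, with a chi-square per degree of freedom of 20.2 to 31.5 between pairs against 4.25 to 6.27, and the largest values were those of the pairs with replicate 1.

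Genes with a mean of at least 0.5 FPKM over the 6 samples were tested, which kept 46 of the 61 axon guidance genes. With an adjusted p under 0.01 in limma on log2(FPKM + 1), 7 were higher and 1 was lower in EWSR1::FLI1 low cells, and 38 did not pass; genes that passed are called higher or lower in what follows. The 7 were the semaphorins SEMA3A, SEMA3C and SEMA6D, the plexin PLXNC1, the netrin receptors UNC5B and UNC5C and the effector DPYSL3, and the gene that fell was the ephrin EFNB1. The 7 genes make up 15.2% of the 46 tested, whereas 4.51% of all 15504 genes tested were called higher and 3.37% lower. The median log2 fold change was 0.32 over the 46 genes and -0.05 over all genes tested, and 31 of the 46 fold changes were positive. In 24 of the 46 genes all 3 EWSR1::FLI1 low samples lay above all 3 EWSR1::FLI1 high samples, against 17.5% of all genes tested, and in 5 they lay below, against 23.6%. The 24 include SEMA6C, ROBO3, RGMA and PLXNA4, with means of 0.218 to 0.384 FPKM before knockdown. These genes passed the filter only through the low group. Members under the filter also had separate groups, SEMA5B below and SEMA3B, PLXNA2, ROBO4, EFNA2 and PLXNB3 above. How many of all genes under the filter had separate groups was not counted, so these members cannot be set against a share. Of all 8984 genes with reads that were too weak to test, 49.5% had their highest value in EWSR1::FLI1 low replicate 1. No member reached a log2 fold change of 2.5, the study's limit, on the log2(FPKM + 1) scale, whereas PLXNC1 and UNC5C passed it with a pseudocount of 0.1 (2.62 and 3.10) and in limma-voom on recovered reads (2.79 and 3.33). Each fold change was fitted to log2(FPKM + 1), so that of a weakly expressed gene is smaller than the ratio of its means, and in bulk RNA a lower level per cell and fewer cells with the transcript cannot be told apart.

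**Figure D1:**
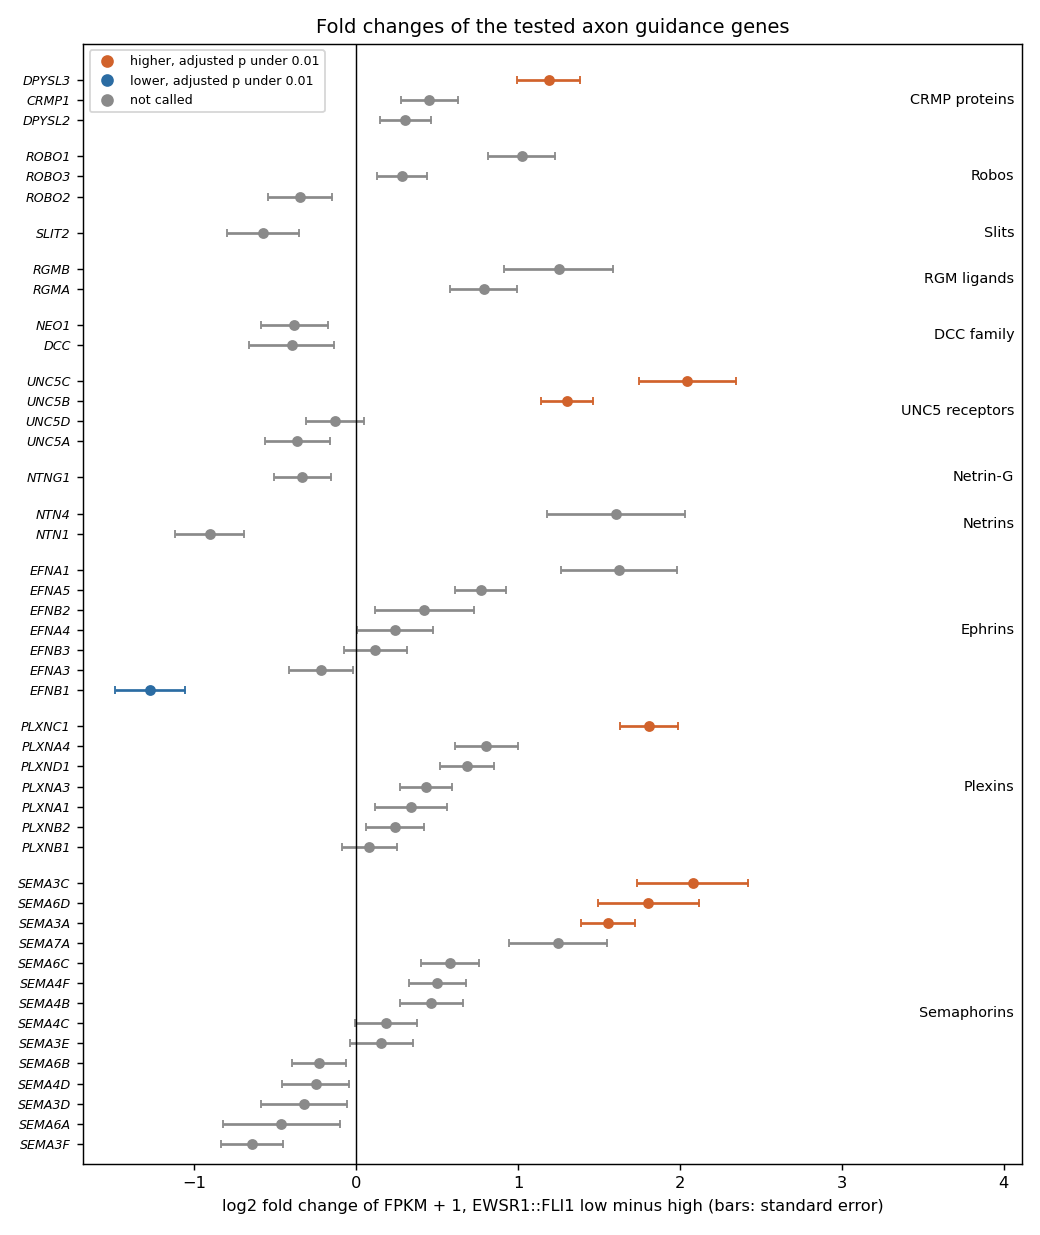
The log2 fold change of FPKM + 1 (EWSR1::FLI1 low minus high, horizontal axis) is plotted for each of the 46 tested axon guidance genes, grouped by family on the vertical axis, with bars for the standard error (3 samples per group). The 7 genes called higher are in orange and range from 1.19 to 2.08, the 1 gene called lower, EFNB1, is in blue at -1.27, and the other 38 are grey.

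Summed over the set, axon guidance transcripts amounted to 399 to 449 FPKM before and to 580 to 650 FPKM after knockdown. In EWSR1::FLI1 high cells the 4 most abundant members were DPYSL2 (90.8 ± 4.09 FPKM, SD, n = 3), the GPI-anchored NTNG1 (54.1 ± 0.243), and the secreted SEMA3D (39.1 ± 4.22) and SEMA3A (37.6 ± 0.728). SEMA3D and SEMA3A overlapped in that group. In EWSR1::FLI1 low cells SEMA3A (113 ± 9.89 FPKM) and DPYSL2 (112 ± 3.28) stood first and second and overlapped, followed by SEMA3C (60.0 ± 24.9), which had been at rank 10, ROBO1 (48.6 ± 11.5) and NTNG1 (43.0 ± 5.51), whose samples also overlapped one another's. EFNB1 moved from rank 5 to rank 15.

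**Figure D2:**
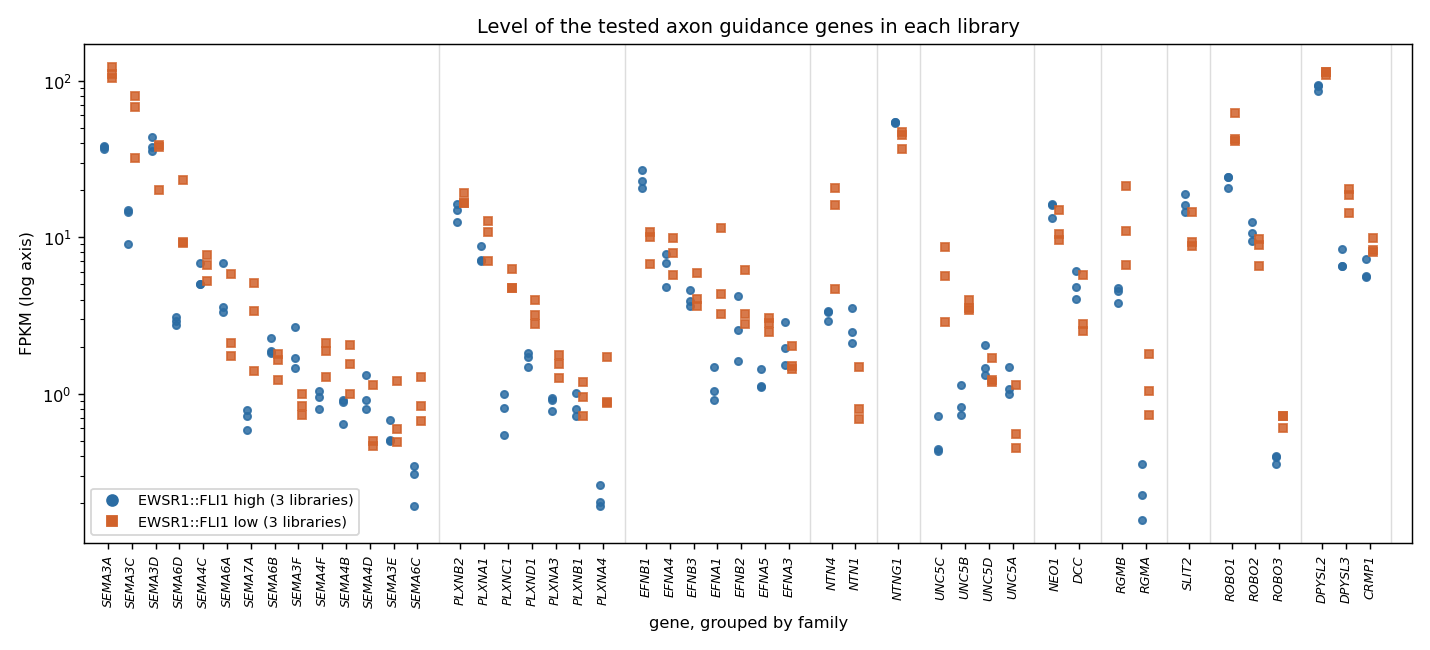
FPKM (log axis) of the 46 tested axon guidance genes in each sample, with EWSR1::FLI1 high samples as blue circles and EWSR1::FLI1 low samples as orange squares (3 each), and with vertical lines between families. SEMA3A, SEMA3C, PLXNC1, UNC5B and UNC5C show separate groups with orange above blue, while EFNB1 and NTN1 show orange below blue.

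The ETS part of EWSR1::FLI1 binds DNA at the letters GGAA, and the fusion is known to bind tandem repeats of them. The bases upstream of the transcription start are shown for the called genes whose window could be read and lay outside annotated exons, so that these letters can be seen beside the expression values. Each is the stretch of 250 bases before the start in RefSeq (GRCh38.p14), 5′ to 3′ on the strand of the gene, with GGAA, or TTCC for the other strand, in capitals.
EFNB1 (lower; chrX:68828771-68829020, plus strand): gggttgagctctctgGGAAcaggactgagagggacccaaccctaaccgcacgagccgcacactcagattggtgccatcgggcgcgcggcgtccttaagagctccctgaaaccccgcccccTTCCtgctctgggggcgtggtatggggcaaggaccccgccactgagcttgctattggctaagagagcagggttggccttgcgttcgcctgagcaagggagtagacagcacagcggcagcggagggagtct
SEMA3C (higher; chr7:80922390-80922639, minus strand): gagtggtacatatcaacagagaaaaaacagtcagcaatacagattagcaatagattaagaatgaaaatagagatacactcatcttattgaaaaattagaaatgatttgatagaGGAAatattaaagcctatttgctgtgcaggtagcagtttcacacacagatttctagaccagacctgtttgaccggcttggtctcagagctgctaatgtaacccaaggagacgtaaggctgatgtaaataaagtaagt
SEMA6D (higher; chr15:47183839-47184088, plus strand): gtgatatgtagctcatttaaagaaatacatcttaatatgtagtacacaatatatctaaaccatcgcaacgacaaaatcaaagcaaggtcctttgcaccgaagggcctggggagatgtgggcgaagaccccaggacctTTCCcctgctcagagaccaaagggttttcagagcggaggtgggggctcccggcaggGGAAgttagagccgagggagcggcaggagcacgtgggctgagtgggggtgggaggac
DPYSL3 (higher; chr5:147510069-147510318, minus strand): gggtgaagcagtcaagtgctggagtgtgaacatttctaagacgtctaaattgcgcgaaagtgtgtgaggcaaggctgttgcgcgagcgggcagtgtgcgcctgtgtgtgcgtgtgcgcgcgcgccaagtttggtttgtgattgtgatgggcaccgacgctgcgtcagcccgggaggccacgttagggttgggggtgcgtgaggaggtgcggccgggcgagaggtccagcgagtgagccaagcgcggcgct
EFNB1 and SEMA6D held 2 copies each, SEMA3C 1 and DPYSL3 0. The windows of PLXNC1 and UNC5C overlap exons and are not printed. They held 2 copies each. The window of PLXNC1 lies inside the gene as GENCODE annotates it, since the RefSeq start used there is an internal one. Most of the window of UNC5C also lies inside its gene, and all 250 bases of it are in annotated exons. Of the 38 tested members with a window, 29 (76.3%) held at least 1 copy, against 92.7% of the 10847 tested genes with a window and 92.8% of all 27305 windows. The tandem GGAAGGAA (either strand) was in 3 of the 38 windows (7.89%), against 2.99% of all windows, and in 0 of the 6 called genes with a window.

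Longer runs of the same letters, of at least 4 units, were counted within 100 kb to each side of the gene start in GRCh37. Such a run was near 20 of the 46 tested members (43.5%), against 54.3% of 13224 tested genes with a start in the annotation, and near 2 of the 8 called members. Runs of at least 10 units were near 5 of the 46 tested members (10.9%), against 18.6% of the same 13224 genes, and near 0 of the 8 called members. The longest run near UNC5C and near SEMA3C, the 2 called members with a run, is shown.
UNC5C (chr4:96410300-96410319, GRCh37, plus strand, inside the gene and outside its exons, at a distance of 60057 bases from the start, downstream of it): GGAAGGAAGGAAGGAAGGAA
SEMA3C (chr7:80604901-80604916, GRCh37, plus strand, in no annotated gene, at a distance of -53226 bases from the start, upstream of it): TTCCTTCCTTCCTTCC
The run at UNC5C has 5 units and that at SEMA3C has 4 units on the other strand. A match is a description of the letters, and binding was not measured.

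Among the 14 semaphorins tested of 20, 3 rose (21.4%, against 4.51% of all genes tested) and none fell. Their summed level was 108 to 117 FPKM before and 223 to 271 FPKM after knockdown. SEMA3A (ENSG00000075213, GRCh37 chromosome 7, 83585093 to 84122040, minus strand) encodes a secreted repellent that acts through neuropilin 1 and class A plexins. It was at 36.9, 37.7 and 38.3 FPKM before and at 103, 111 and 123 FPKM after knockdown. The groups were separate, with little spread inside either, and the mean rose 2.99-fold (log2 fold change 1.55 ± 0.17 SE, adjusted p = 0.00047, limma). SEMA3A was called in all 15 alternative fits.

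SEMA3C (ENSG00000075223, chromosome 7, 80371854 to 80551675, minus strand), a secreted semaphorin needed by the neural crest cells of the heart's outflow tract, had the largest fold change of the set on the log2(FPKM + 1) scale, while with a pseudocount of 0.1 it was 2.15 and below those of UNC5C and PLXNC1. It was at 9.08, 14.4 and 14.9 FPKM before and at 32.1, 67.9 and 80.0 FPKM after knockdown. In both groups replicate 1 was the lowest, and the groups did not overlap. The log2 fold change was 2.08 ± 0.34 (SE, adjusted p = 0.00398), and without EWSR1::FLI1 low replicate 1 it was 2.47. That was the only one of the 6 fits without 1 library to keep an adjusted p under 0.01, and without any of the other 5 libraries it was at most 0.0173. Without the filter the adjusted p of SEMA3C was 0.0103.

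SEMA6D (ENSG00000137872, chromosome 15, 47476298 to 48066425, plus strand) encodes a transmembrane semaphorin that binds PLXNA1. Its level was 3.08, 2.76 and 2.93 FPKM before and 23.1, 9.39 and 9.24 FPKM after knockdown, so replicate 1 was more than 2 times the other two. The log2 fold change of SEMA6D was 1.80 ± 0.31 (adjusted p = 0.00504) and 1.40 without EWSR1::FLI1 low replicate 1 (adjusted p = 0.0004). SEMA6D lost its call in 7 of the 15 alternatives. The adjusted p was 0.0124 on recovered reads in limma-voom, 0.0232 with quantile normalization and 0.0142 without the filter. It was also over 0.01 without any EWSR1::FLI1 high library or without EWSR1::FLI1 low replicate 3 (up to 0.0266). Markers of Schwann cells, a glial type, were also highest in EWSR1::FLI1 low replicate 1, with a summed level of 11.9 FPKM there, 5.02 to 5.05 in the other EWSR1::FLI1 low samples and 2.46 to 4.52 in EWSR1::FLI1 high samples. Most of the 11.9 FPKM was S100B at 6.84, while SOX10 lay between 0 and 0.236 FPKM in all 6 samples. None of the 3 Schwann cell markers tested passed, and the part of such cells in the result was not tested.

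The other 11 tested semaphorins did not pass the test. They include the class 3 genes on either side of SEMA3A on chromosome 7. SEMA3D was at 43.8, 35.7 and 37.8 FPKM before and at 38.7, 20.0 and 37.8 FPKM after knockdown, and the groups overlapped (log2 fold change -0.33 ± 0.27). SEMA3E was at 0.489 to 1.20 FPKM over all 6 samples. SEMA7A, a GPI-anchored semaphorin that binds PLXNC1, was at 0.719, 0.582 and 0.786 FPKM before and at 1.40, 5.13 and 3.39 FPKM after knockdown (log2 fold change 1.24 ± 0.30, adjusted p = 0.0221). Here EWSR1::FLI1 low replicate 1 was the lowest of its group but still above all EWSR1::FLI1 high samples, and without it SEMA7A passed (1.61, adjusted p = 0.000684). SEMA3F, a secreted ligand of neuropilin 2, had the lowest fold change of the family, -0.65 ± 0.19 (adjusted p = 0.0437), with 1.46 to 2.66 FPKM before and 0.73 to 0.992 FPKM after knockdown.

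**Figure D3:**
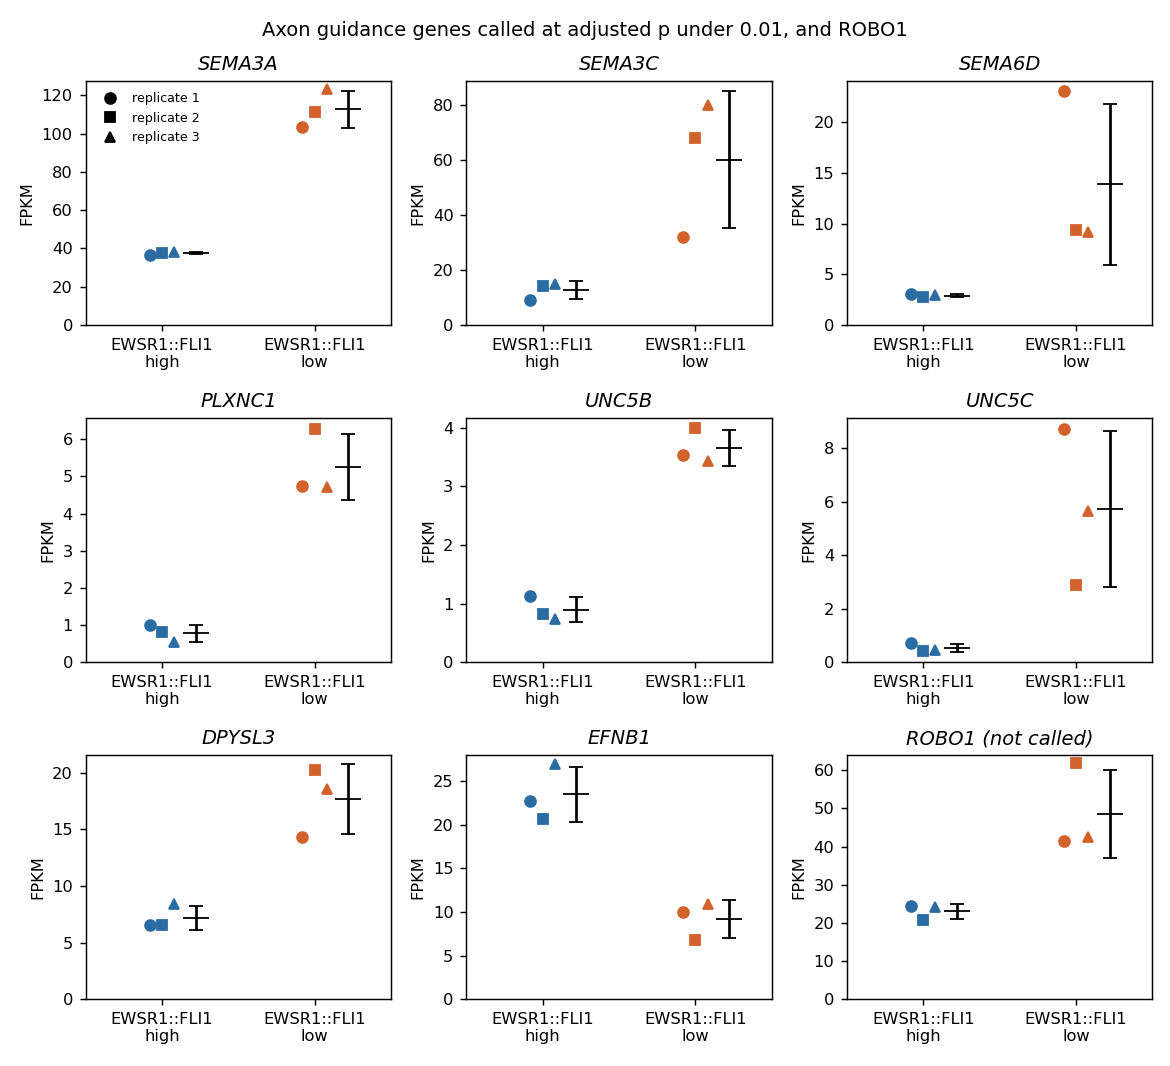
FPKM of the 8 axon guidance genes called at an adjusted p under 0.01, and of ROBO1, which was not called, in each sample (circle, square and triangle for replicates 1, 2 and 3; blue for EWSR1::FLI1 high and orange for low), with the mean and SD of 3 samples beside the points. The groups are separate in all 9 panels, the EWSR1::FLI1 low samples are lower for EFNB1 alone, and replicate 1 is the lowest of the low group for SEMA3C and the highest for SEMA6D and UNC5C.

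Among the ephrins, ligands of the Eph receptors, 7 of 8 were tested and 1 fell (14.3%, against 3.37% of all genes tested). EFNB1 (ENSG00000090776, chromosome X, 68048864 to 68062003, plus strand), a transmembrane ephrin, was at 22.7, 20.7 and 26.9 FPKM before and at 10.0, 6.74 and 10.9 FPKM after knockdown. All EWSR1::FLI1 low samples lay below all EWSR1::FLI1 high samples, and the mean was 2.54-fold lower (log2 fold change -1.27 ± 0.22, adjusted p = 0.00456, limma). In the fits that left out 1 library the fold change of EFNB1 stayed between -1.40 and -1.09, and the adjusted p was under 0.01 without EWSR1::FLI1 low replicate 1 or 3 and reached 0.0306 in the other 4. EFNB1 was the most abundant ephrin before knockdown. EFNB2 and EFNB3, the other transmembrane ephrins, had positive fold changes of 0.42 ± 0.31 and 0.12 ± 0.19 with overlapping groups.

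The GPI-anchored ephrins EFNA1 and EFNA5 came close to the threshold in the other direction. EFNA5 was at 1.43, 1.11 and 1.11 FPKM before and at 2.82, 2.47 and 3.03 FPKM after knockdown, with separate groups (log2 fold change 0.77 ± 0.16, adjusted p = 0.0107). EFNA1 was at 0.913, 1.04 and 1.48 FPKM before and at 4.31, 11.5 and 3.24 FPKM after knockdown, also with separate groups, and replicate 2 was far above the other EWSR1::FLI1 low samples (1.62 ± 0.36, adjusted p = 0.015). EFNA1 lies on chromosome 1 beside EFNA3 and EFNA4, whose groups overlapped, with log2 fold changes of -0.22 ± 0.20 and 0.24 ± 0.24. EFNA1 and EFNA5 are described here because their adjusted p lay just above the threshold, a choice made after their values were seen.

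No netrin, netrin-G, RGM or Slit gene passed the test. Of the netrins, secreted guidance cues related to laminin, NTN4 had the highest mean, with 2.93, 3.40 and 3.32 FPKM before and 4.70, 20.6 and 16.0 FPKM after knockdown. The groups were separate, but replicate 1 was at 0.257 times the mean of the other two EWSR1::FLI1 low samples (ratio of the means 4.28, adjusted p = 0.0302). Without that library the fold change of NTN4 was 2.19 (adjusted p = 9.5e-05). NTN1, the founding member of the family, went the other way with separate groups, from 2.11, 2.49 and 3.53 FPKM to 0.793, 1.47 and 0.69 FPKM (-0.90 ± 0.21, adjusted p = 0.0196). RGMB, a co-receptor for bone morphogenetic proteins that also binds NEO1, was at 3.79 to 4.74 FPKM before and at 6.68, 21.2 and 11 FPKM after knockdown (1.25 ± 0.34, adjusted p = 0.0321), and passed without EWSR1::FLI1 low replicate 1 (1.61, adjusted p = 0.0028).

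NTNG1, the netrin-G that binds the adhesion molecule LRRC4C, varied very little in EWSR1::FLI1 high samples (54.1, 53.9 and 54.4 FPKM) and lay below them in every EWSR1::FLI1 low sample (36.8, 44.8 and 47.4 FPKM). Its log2 fold change of -0.33 ± 0.18 did not pass (adjusted p = 0.22). SLIT2, the Slit that was tested and a secreted Robo ligand, was at 16.0, 14.4 and 18.8 FPKM before and at 14.5, 9.29 and 8.84 FPKM after knockdown, with replicate 1 of the low group inside the range of the high group (-0.58 ± 0.22, adjusted p = 0.102). Without that library SLIT2 passed (-0.78, adjusted p = 0.00816).

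Of the 16 receptors tested, 3 rose (18.8%, against 4.51% of all genes tested) and none fell. All 7 tested plexins, the semaphorin receptors, had a positive log2 fold change, from 0.08 for PLXNB1 to 1.81 for PLXNC1. Of the 7, 1 passed (14.3%, against 4.51% of all genes tested). In 5 of the 7 every EWSR1::FLI1 low sample lay above every EWSR1::FLI1 high sample (17.5% of all genes tested). Among these 5, PLXNA4 was weak, with a mean of 0.218 FPKM before knockdown, and passed the filter only through the low group. PLXNC1 (ENSG00000136040, chromosome 12, 94542353 to 94701451, plus strand), the receptor of SEMA7A, was at 0.992, 0.81 and 0.544 FPKM before and at 4.74, 6.28 and 4.73 FPKM after knockdown. The mean rose 6.71-fold (log2 fold change 1.81 ± 0.18, adjusted p = 0.000321, limma), the lowest adjusted p of the set, and PLXNC1 was called in all 15 alternatives. Its last 1227 bases overlap CEP83 on the other strand, which was at 26.8 to 33.1 FPKM before and 14.4 to 24.7 FPKM after knockdown. Whether the authors' counting used strand is not given in the sources used here, and without it the reads of a gene and an antisense partner cannot be told apart.

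The most abundant plexins were PLXNB2 and PLXNA1, and neither passed the test. PLXNB2 was at 12.6 to 16.4 FPKM before and at 16.5 to 19.0 FPKM after knockdown (0.24 ± 0.18), and PLXNA1, a receptor of SEMA6D and, with neuropilin 1, of SEMA3A, was at 7.07 to 8.76 and at 7.03 to 12.7 FPKM (0.34 ± 0.22). PLXND1, a receptor for SEMA3E, had separate groups, with 1.49 to 1.81 FPKM before and 2.79 to 3.98 FPKM after knockdown, but did not pass (0.68 ± 0.17, adjusted p = 0.0225).

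Of the 4 UNC5 receptors, which mediate repulsion by netrins, 2 rose (50%, against 4.51% of all genes tested). UNC5B (ENSG00000107731, chromosome 10, 72972327 to 73062621, plus strand) was at 1.13, 0.819 and 0.731 FPKM before and at 3.54, 4.0 and 3.43 FPKM after knockdown. The groups were separate, and the mean rose 4.09-fold (log2 fold change 1.30 ± 0.16, adjusted p = 0.000924, limma), a call kept in all 15 alternatives. The antisense UNC5B-AS1 shares 1075 bases with the gene and was at 0.2 to 0.388 FPKM before and at 0.565 to 1.39 FPKM after knockdown.

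UNC5C (ENSG00000182168, chromosome 4, 96083655 to 96470357, minus strand) went from the lowest mean of the 4 before knockdown to the highest after it. It was at 0.723, 0.432 and 0.444 FPKM before knockdown, where 34 to 75 reads fell on it, and at 8.70, 2.88 and 5.65 FPKM after it. The 3 EWSR1::FLI1 low samples spread 3.02-fold but all lay far above the others, the mean rose 10.8-fold, the largest ratio among the called members, and the log2 fold change was 2.04 ± 0.30 (adjusted p = 0.00232). Without EWSR1::FLI1 low replicate 1, its highest sample and the one with the most S100B, the fold change of UNC5C was 1.73 (adjusted p = 0.0016), while without EWSR1::FLI1 high replicate 2 or 3 or low replicate 3 its adjusted p was over 0.01 and at most 0.0145. UNC5A and UNC5D were weak, at 0.447 to 2.04 FPKM over all samples, and had negative fold changes of -0.36 ± 0.20 and -0.13 ± 0.18 with overlapping groups. DCC and NEO1, the receptors through which netrins attract, did not pass either, and NEO1, the more abundant, was at 16.4, 13.3 and 16.1 FPKM before and at 15.0, 9.55 and 10.4 FPKM after knockdown (-0.38 ± 0.21, adjusted p = 0.232).

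ROBO1 (ENSG00000169855, chromosome 3, 78646389 to 79817148, minus strand), the most abundant Slit receptor, lay just outside the threshold. It was at 24.3, 20.8 and 24.1 FPKM before and at 41.5, 61.8 and 42.5 FPKM after knockdown. The groups were clearly separate and the ratio of the means was 2.10, but the log2 fold change of 1.02 ± 0.21 had an adjusted p of 0.0109 (limma). ROBO1 passed in 7 of the 15 alternatives, among them limma-voom on recovered reads (adjusted p = 0.00162), quantile normalization and median-ratio scaling. ROBO2, its neighbour on chromosome 3, was at 9.47 to 12.5 FPKM before and at 6.55 to 9.70 FPKM after knockdown (-0.35 ± 0.20, adjusted p = 0.249), and ROBO3 was under 1 FPKM in every sample.

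All 3 CRMP genes had separate groups with the EWSR1::FLI1 low samples on top (17.5% of all genes tested). Of the 3, 1 passed (33.3%, against 4.51% of all genes tested). DPYSL3 (ENSG00000113657, chromosome 5, 146770371 to 146889631, minus strand) had the largest of the 3 changes. It was at 6.57, 6.58 and 8.37 FPKM before and at 14.3, 20.3 and 18.6 FPKM after knockdown. The mean rose 2.47-fold (log2 fold change 1.19 ± 0.20, adjusted p = 0.00394, limma), although of the 6 fits without 1 library the one without EWSR1::FLI1 low replicate 1 alone kept an adjusted p under 0.01, with up to 0.0293 in the other 5. DPYSL2, the effector of SEMA3A in growth cone collapse, was at 86.1 to 93.7 FPKM before and at 108 to 114 FPKM after knockdown (0.30 ± 0.16, adjusted p = 0.212). CRMP1 was at 5.61 to 7.23 FPKM before and at 8.07 to 9.95 FPKM after knockdown (0.45 ± 0.18, adjusted p = 0.106).

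The 15 members that were not tested stayed under 1 FPKM in every sample. The semaphorins SEMA3B, SEMA3G, SEMA4A, SEMA4G, SEMA5A and SEMA5B lay between 0.0186 and 0.768 FPKM, the plexins PLXNA2 and PLXNB3 between 0 and 0.618, SLIT1 and SLIT3 between 0.0615 and 0.393, and ROBO4 between 0.0654 and 0.604. NTN3 and NTN5 lay between 0 and 0.255 FPKM, NTNG2 between 0.162 and 0.582, and EFNA2 between 0.234 and 0.911. PLXNB3 had 0 reads in EWSR1::FLI1 high replicates 2 and 3, and a count of 0 allows up to 3 reads. In the libraries where PLXNB3 had reads, 3 reads amounted to 0.0302 to 0.0574 FPKM. Of these 15 genes, 9 had their highest value in EWSR1::FLI1 low replicate 1, the shallowest library, as did 49.5% of all 8984 genes with reads that were too weak to test.

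Among the 46 tested members, 36 spread more between EWSR1::FLI1 low than between EWSR1::FLI1 high samples. The median ratio of the highest to the lowest sample was 1.64 in the low group and 1.34 in the high group. Replicate 1 of the low group was more than 2 times the mean of the other two for 8 genes, SEMA6D, UNC5C and RGMA among them, and under 0.5 times that mean for 4, SEMA7A and NTN4 among them. These counts were not made for all genes tested. The wider spread was not particular to the members, since the chi-square given above (20.2 to 31.5 against 4.25 to 6.27) was taken over the whole table. Leaving out EWSR1::FLI1 low replicate 1 gave 11 members higher and 2 lower, in a fit where 1527 of all 14907 genes tested were higher and 807 lower. These members were the 7 and the 1 called with all samples, with NTN4, RGMB, ROBO1 and SEMA7A added to the first and SLIT2 to the second.

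The receptors and transducers that work with these molecules were read from 4 further lists of 76 genes, of which 65 were tested, 7 rose and 1 fell. The 7 are 10.8% of the 65 and the 1 is 1.54%, against 4.51% higher and 3.37% lower of all genes tested. Of 8 co-receptors of semaphorin signals 7 were tested, and all 7 had every EWSR1::FLI1 low sample above every EWSR1::FLI1 high sample (17.5% of all genes). Of the 7, 2 passed (28.6%, against 4.51% of all genes tested). Both counts include KDR, which had a mean of 0.347 FPKM before knockdown and passed the filter only through the low group. KDR, the VEGF receptor that forms complexes with plexins and neuropilins, was at 0.268, 0.497 and 0.277 FPKM before and at 6.85, 5.20 and 8.37 FPKM after knockdown (log2 fold change 2.52 ± 0.19, adjusted p = 0.000108). L1CAM, a neural adhesion molecule that joins neuropilin 1 in SEMA3A reception, was at 0.582, 0.455 and 0.566 FPKM before and at 4.85, 7.16 and 3.99 FPKM after knockdown (2.02 ± 0.20, adjusted p = 0.000356). KDR is also an endothelial gene: the endothelial markers PECAM1, CDH5, VWF and TEK summed to 0.746 to 1.04 FPKM before and to 1.32 to 2.34 FPKM after knockdown, and VWF lay between 0.0726 and 0.382 FPKM in all samples. PECAM1, the one of the 4 that was tested, was at 0.278, 0.366 and 0.348 FPKM before and at 0.934, 1.56 and 0.879 FPKM after knockdown, with separate groups (adjusted p = 0.0333), and the part of such cells in the level of KDR was not tested.

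The neuropilins did not pass, but their values are given, chosen after they were seen, since SEMA3A and SEMA3C bind them. NRP1 was at 14.1, 15.7 and 18.5 FPKM before and at 25.7, 85.6 and 69.5 FPKM after knockdown (1.68 ± 0.39, adjusted p = 0.0188), and NRP2 was at 0.494, 0.569 and 0.702 FPKM before and at 2.27, 18.9 and 5.87 FPKM after it (2.27 ± 0.53, adjusted p = 0.0186). For both genes replicate 1 was the lowest of the EWSR1::FLI1 low samples, and without it both passed (adjusted p = 9.1e-05 for NRP1 and 0.0013 for NRP2).

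**Figure D4:**
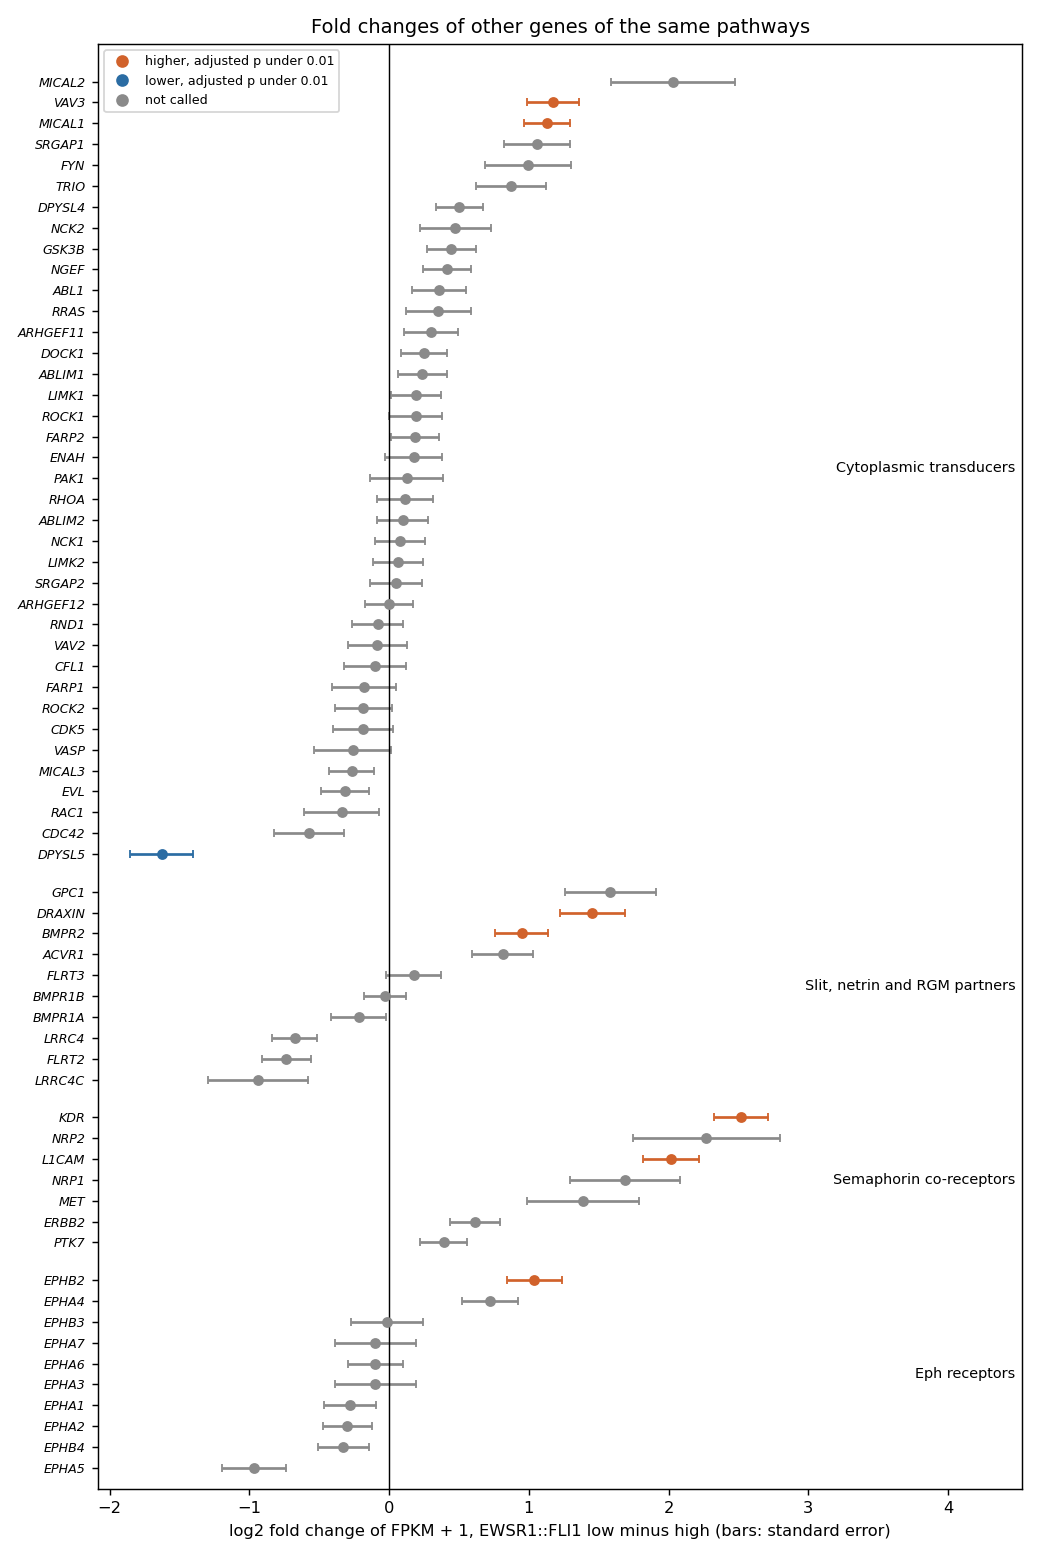
The log2 fold change of FPKM + 1 (EWSR1::FLI1 low minus high, horizontal axis) is plotted for the 65 tested genes that work with the axon guidance molecules, grouped into 4 lists, with bars for the standard error (3 samples per group). The 7 Semaphorin co-receptors are all to the right of 0, from 0.39 to 2.52, the last being KDR, which passed the filter only through the low group. Of the 10 Eph receptors 8 are to the left, but EPHA3, EPHA6, EPHA7 and EPHB3 by less than their standard error.

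Of the Eph receptors, through which the ephrins act, 10 of 14 were tested. Among these, 1 rose (10%, against 4.51% of all genes tested), none fell, and 8 of the 10 fold changes were negative. Of the negative ones, those of EPHA3, EPHA6, EPHA7 and EPHB3 were smaller than their standard errors. EPHB2, which binds B-class ephrins such as EFNB1, rose from 0.837, 0.807 and 0.725 FPKM to 1.92, 3.70 and 2.63 FPKM (1.04 ± 0.20, adjusted p = 0.00795). Of 10 tested partners of Slits, netrins and RGM proteins, 2 rose (20%, against 4.51% of all genes tested). DRAXIN, a secreted netrin antagonist that binds DCC, was at 2.90, 2.90 and 5.02 FPKM before and at 9.20, 11 and 14.4 FPKM after knockdown (1.46 ± 0.24, adjusted p = 0.00367). BMPR2, a type II receptor for bone morphogenetic proteins, for which RGM proteins are co-receptors, went from 6.23 to 8.44 FPKM in the high group to 13.5 to 17.5 FPKM in the low group (0.95 ± 0.19, adjusted p = 0.00935). BMPR2 and EPHB2 each lost the call in 7 of the 15 alternatives, among them the fits without each EWSR1::FLI1 high library and without EWSR1::FLI1 low replicate 2 or 3 (adjusted p up to 0.0595 and 0.0398), and DRAXIN in 4, without EWSR1::FLI1 high replicate 1 or 2, EWSR1::FLI1 low replicate 3 or the filter (up to 0.0243).

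Of 38 tested cytoplasmic transducers, 2 rose (5.26%) and 1 fell (2.63%). Over all genes tested 4.51% were higher and 3.37% lower, so this list was near the share of all genes. MICAL1, an oxidase that severs actin filaments downstream of plexins, rose from 0.85 to 1.33 FPKM in the high group to 3.44 to 3.98 FPKM in the low group (1.13 ± 0.16, adjusted p = 0.00206). It overlaps ZBTB24 on the same strand over 5337 bases, and ZBTB24 was at 14.2 to 19.1 FPKM before and 7.57 to 11 FPKM after knockdown. VAV3, an exchange factor that acts downstream of Eph receptors, rose from 0.504 to 1.08 FPKM to 2.73 to 3.49 FPKM (1.18 ± 0.19, adjusted p = 0.00325). DPYSL5, which encodes a CRMP protein outside the set, fell from 11.2, 7.85 and 11.8 FPKM to 2.98, 1.78 and 3.27 FPKM (-1.63 ± 0.23, adjusted p = 0.00171). Without single libraries the adjusted p reached 0.0139 for MICAL1 (without EWSR1::FLI1 high replicate 1 or 3), 0.0168 for VAV3 (without any high library or low replicate 3) and 0.012 for DPYSL5 (without high replicate 3).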

How the data were processed

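RNAseq of 6 A673/TR/shEF samples was used, 3 EWSR1::FLI1 high and 3 EWSR1::FLI1 low, grouped by their labels. The values the authors deposited are FPKM, one for each gene symbol in each library, with replicates kept apart. The submitters' processing notes name STAR 2.5.0b, Cufflinks 2.2.1, bedtools 2.17.0, DESeq2 1.6.3 and the build GRCh37. A second table from the authors holds their own comparison, with log2 fold changes, standard errors, Wald statistics and p-values, which were not used. From that table only the deposited signal (a gene's normalized count averaged over the 6 libraries) was taken. With it the FPKM values became whole multiples of 1 read (100% of values above 0, within 0.1 reads), which gave the reads per gene.

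The 15504 genes that averaged 0.5 FPKM or more were tested with limma 3.58.1 (R 4.3.3; lmFit, eBayes with trend) on log2(FPKM + 1), with Benjamini-Hochberg adjustment over all of them and a limit of 0.01 on the adjusted p. Because FPKM are not counts, a count test on the recovered reads (limma-voom) was an alternative only. The members, the lists of other pathway genes and of cell type markers, and the tests were chosen with earlier results of these data known. Named were SEMA3A, EFNB1 and ROBO1, each member or other pathway gene with an adjusted p under 0.01, and the member of highest mean FPKM in each family without one. Further genes near the threshold or beside a called gene were named after their values were seen. Two-sided exact permutation of 3 against 3 samples cannot give a p under 0.1, so no single value was tested that way. Reads on genes were 6980361 to 16658933 per library, and a floor of 3 reads covers counting error only. Counts of replicates differed by more than sampling noise in every pair, so no library was merged with another. The fit was tested on simulated data before use.

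Alternatives were a pseudocount of 0.1, no filter or one at 1 FPKM, quantile normalization, scaling by median ratios, sample quality weights, a replicate block, eBayes without trend, limma-voom, leaving out each library in turn, and other limits. Gene coordinates are those of GENCODE lifted to GRCh37, and windows before gene starts are those of RefSeq (GRCh38.p14), which held 6 of the 8 called members. Python 3.11.15, pandas 2.3.3 and matplotlib 3.10.9 were used for other steps. Markers of epithelial cells summed to 50.7 to 79.7 FPKM in EWSR1::FLI1 high and 41.6 to 112 FPKM in EWSR1::FLI1 low samples, nearly all of it KRT18, and those of neurons to 93.2 to 118 and 85.4 to 163 FPKM, mostly TUBB3, with RBFOX3 at most at 0.188 FPKM.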

Additional observations from a re-analysis of the deposited data

How the results depend on the processing

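SEMA3A, PLXNC1, UNC5B and FLI1 kept their direction and an adjusted p under 0.01 in all 15 alternatives, and no gene named by rule changed sign. Of the other members, EFNB3 (-0.05) and SEMA3E (-0.02) had negative fold changes without EWSR1::FLI1 low replicate 1, as did PLXNB1 with quantile normalization (-0.07). The 7 members called higher became 18 with sample quality weights, 12 with limma-voom on recovered reads and 16 at an adjusted p under 0.05, 0 were past a log2 fold change of 2.5 on the log2(FPKM + 1) scale, and 3 to 11 were called when 1 library was left out. The 1 member called lower became 4, 2, 3 and 0 in the same order, and 0 to 2 when 1 library was left out. The 7 other pathway genes called higher became 20, 13 and 17 with weights, limma-voom and the limit of 0.05, 3 without the filter, 13 with the replicate block and 2 to 15 when 1 library was left out. The 1 called lower became 5, 2 and 4, 2 with quantile normalization, 2 with the replicate block and 0 to 4 when 1 library was left out. Over all genes, 700 were higher and 522 lower in the reported fit, 2488 and 2257 with weights, 1239 and 1142 with limma-voom and 1527 and 807 without EWSR1::FLI1 low replicate 1, so the background rose with the members' counts. With the replicate block 9 members were higher, the 7 with EFNA1 and NTN4, and 1 was lower. The labels give both groups the same replicate numbers. Libraries that share a number deviated from the means of their groups with r = 0.27, 0.09 and 0.12 across genes. Pairs with different numbers had r from -0.29 to 0.19, and only that of EWSR1::FLI1 high replicate 3 and low replicate 2 was positive. The reported fit has no block, and whether samples that share a number are paired was not settled. With the block, 916 of all genes tested were higher and 786 lower. The lowest counts came from leaving out EWSR1::FLI1 high replicate 2 or 3 or EWSR1::FLI1 low replicate 3, each with 3 members higher, and EWSR1::FLI1 high replicate 1 gave 4. EFNB1 was not called in the 4 fits that left out an EWSR1::FLI1 high library or EWSR1::FLI1 low replicate 2. With 3 samples a group, changes of weak genes such as UNC5A or SEMA3E could not be told from the spread, and the 15 members below the filter were not tested.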
